A study of Homo sapiens with 9 samples.

Results

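The proteasome is the protease that degrades ubiquitin-tagged proteins, and 39 of its genes were followed in HepG2 cells, a human hepatocellular carcinoma line, after treatment with eliglustat, an inhibitor of glucosylceramide synthase. The members were chosen by symbol: 14 genes of the 20S core, 17 genes of the 19S regulatory particle, 4 activators and 4 core assembly factors, out of 62703 genes listed in the count files. Each of the 39 symbols matched a single Ensembl identifier. Each member had enough reads to be tested, so no filter on low counts removed any. The study compared untreated HepG2 cells, cells given 20 µM eliglustat for 72 h and cells given 30 µM eliglustat for 72 h, with 3 RNA sequencing libraries in each group. The study's description also mentions a further incubation after the treatment, and whether the sequenced cells had it is unclear. Eliglustat was dissolved in water, the labels do not say whether the controls received the vehicle, and all groups are the same cell line. The questions followed here were whether transcript levels of proteasome genes changed at either dose, and whether the core and the regulatory particle changed alike.

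As background, the 20S core is a barrel of stacked rings: outer rings of alpha subunits that gate the entry of substrates, and inner rings of beta subunits, some of which carry the proteolytic sites. The 19S regulatory particle caps the barrel, with a base that holds a ring of ATPases for unfolding substrates and a lid that removes ubiquitin. Other activators can replace the cap, and dedicated chaperones assemble the core. In mammalian cells many of these genes are induced together by the transcription factor NFE2L1 when proteasome activity is short. The liver makes most plasma proteins, and hepatocytes turn over a large amount of protein through this route.

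The libraries held 21103757 to 26782810 counts in genes, of which the 39 members took 0.406% to 0.412% in controls, 0.337% to 0.345% at 20 µM and 0.358% to 0.360% at 30 µM. Levels are CPM, the count of a gene scaled to a common library total after TMM scaling (a factor per library that centres the bulk of genes). Log2 changes are given with their SE from edgeR quasi-likelihood fitted to all 9 libraries, and p-values were adjusted by the Benjamini-Hochberg method across all 17623 tested genes. A member is said to rise or fall where the adjusted p was under 0.05. Whether the 3 libraries of a group are separate cultures is not stated in the labels, and a p-value therefore reflects the scatter among sequenced libraries alone, some of it possibly technical. All 8 hepatocyte markers examined were expressed. Of 6 markers of other cell types, COL1A2 and PTPRC were at 0 in every library, COL1A1 and CD68 were below 0.5 CPM, PECAM1 was at 0.661 to 2.19 CPM, and LYZ was at 437 to 666 CPM. At 20 µM against control, 5 hepatocyte markers rose and 2 fell, from -0.38 for AFP to 0.76 for TTR, and PECAM1 fell (log2 change -0.90 ± 0.28, adjusted p = 0.0122) while LYZ did not pass (log2 change -0.054 ± 0.036, adjusted p = 0.279). With 30 µM, 3 hepatocyte markers rose and 4 fell against control, from -0.52 for AFP to 1.25 for TTR, PECAM1 fell (log2 change -1.21 ± 0.29, adjusted p = 0.000633) and LYZ rose (log2 change 0.48 ± 0.036, adjusted p = 4.29e-13). The background was 17.2% of all tested genes higher and 16.9% lower at 20 µM, and 29.5% higher and 31.3% lower at 30 µM. The part of these marker changes in the results was not tested. The share of records aligned to several places averaged 14.6 ± 1.12% at 20 µM, 16.8 ± 2.38% at 30 µM and 12.5 ± 0.199% in controls (SD, n = 3), and its part in the results below was not tested.

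At 20 µM most proteasome genes fell. Of the 39 members, 31 fell and 0 rose at 20 µM against control by edgeR quasi-likelihood (also 0 by DESeq2 and by limma voom), and 34 had an unadjusted p under 0.05. The background in this comparison was 16.9% of all tested genes lower and 17.2% higher. All 39 log2 changes were below 0, from -0.78 for PSMA2 to -0.055 for PSMG2, and their median was -0.23 against 0.0087 over all genes tested. In 33 of the 39 members every 20 µM library lay below every control library, where 22.1% of all genes did so. After PSMA2 the largest falls were those of PSMB3 (-0.41) and PSMD11 (-0.40). CPM is a share of the sequenced RNA, so fewer proteasome transcripts per cell and more of other transcripts cannot be told apart. No scaling alternative turned the sign of any member at this dose.

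At 30 µM the members split. Against control, 10 rose and 12 fell, and 17 did not pass the test, with a background of 29.5% of all genes higher and 31.3% lower. These shares, 25.6% of members higher and 30.8% lower, lie near the background. The 30 µM libraries lay above all controls in 11 members (31.3% of all genes) and below them in 13 (33.8% of all genes). The median log2 change of the members was -0.057, against -0.036 over all genes. The 10 higher members were PSMA5, PSMB4, PSMD1, PSMD2, PSMD3, PSMD8, PSMD12, PSMD14, PSME4 and POMP, of which 6 (PSMA5, PSMB4, PSMD1, PSMD3, PSMD12 and PSMD14) turned below 0 when libraries were scaled by their total alone. The 12 lower members were PSMA2, PSMA3, PSMA4, PSMB2, PSMB3, PSMC3, PSMC6, PSMD4, PSME1, PSME2, PSMG1 and PSMG3, and none of them turned under any scaling tried. Scaling by library total alone moved the median log2 change of all genes to -0.246, and relative to that median the members stood at -0.022, against -0.021 with TMM. That near match holds by construction, since the scaling moves all genes by a common amount.

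Between the doses, 26 members were higher and 2 lower at 30 µM than at 20 µM, with a background of 28.0% of all genes higher and 28.9% lower. The median was 0.19, against -0.029 over all genes. The groups did not overlap in 26 members as higher at 30 µM (29.7% of all genes) and in 2 as lower (31.4% of all genes). The 2 lower members were the activator genes PSME1 and PSME2. Of the 26 higher members, 7 (PSMA1, PSMA3, PSMA7, PSMB1, PSMB2, PSMB4 and PSMB5) turned below 0 with scaling by library total alone, where the median of all genes was -0.223. Relative to the median of all genes the members stood at 0.221 with either scaling, a match that holds by construction, since the scaling moves all genes by a common amount. The comparison with control at 20 µM and the comparison between the doses share the 20 µM libraries. With that in view, 22 members were lower at 20 µM than in control and higher at 30 µM than at 20 µM, and 5.27% of all genes were.

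**Figure D1:**
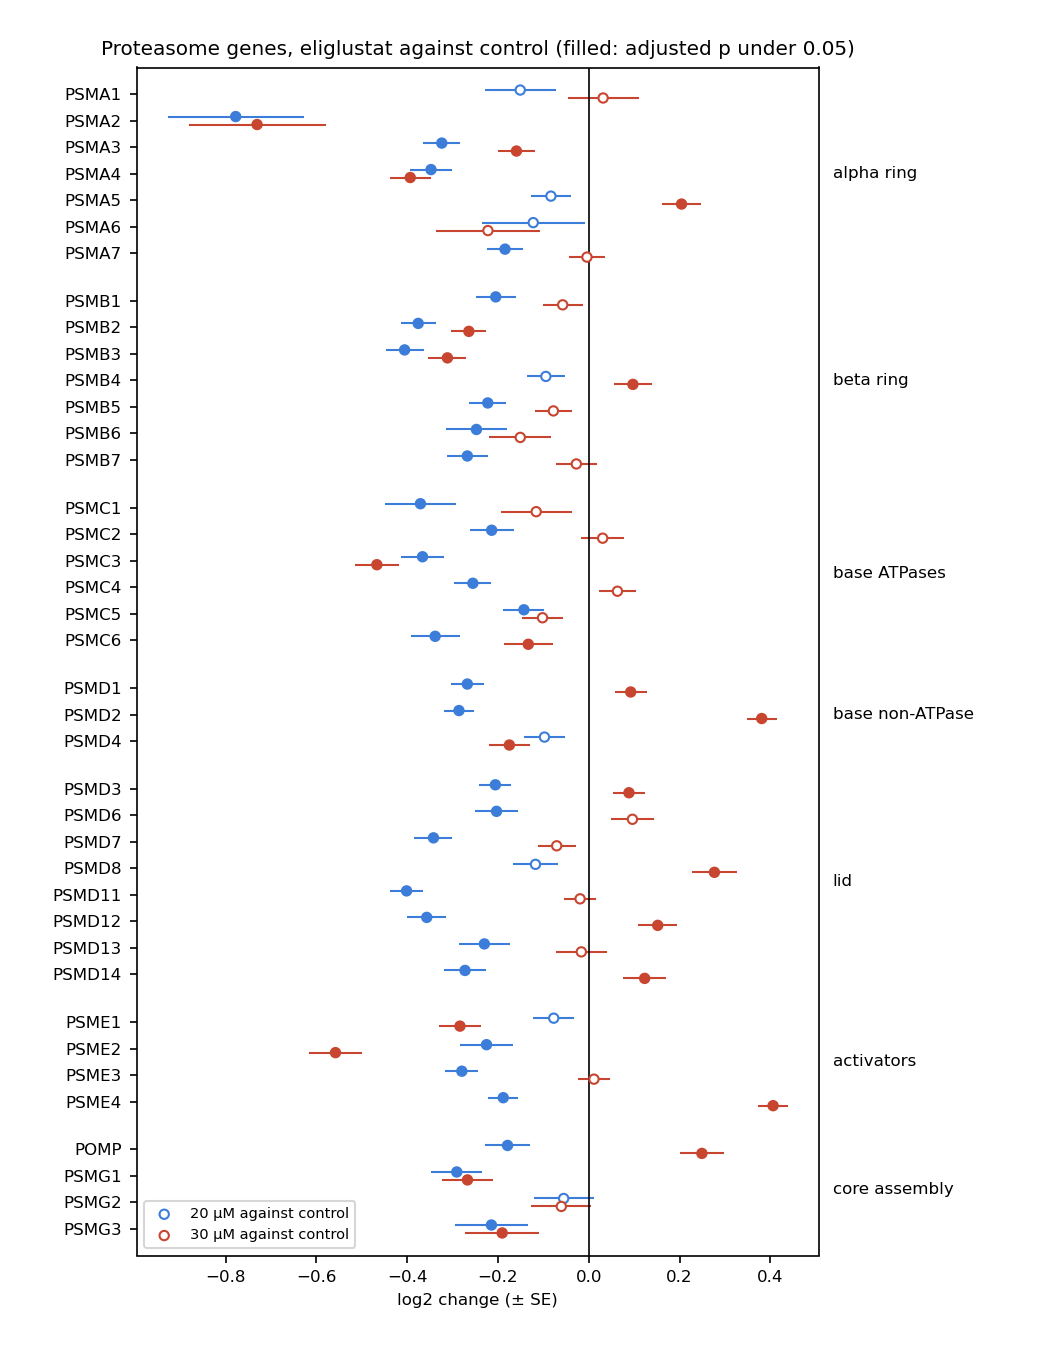
Log2 change of each of the 39 members at 20 µM (blue) and 30 µM (red) against control, with bars for the SE, ordered by role, filled where the adjusted p was under 0.05. All blue points lie below 0, while the red points run from PSMA2 at -0.73 to PSME4 at 0.41, and 6 of the 10 filled red points above 0 turned below 0 with scaling by library total alone.

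The alpha ring, the gate of the core, fell in 4 of its 7 members at 20 µM (PSMA2, PSMA3, PSMA4 and PSMA7), while PSMA1, PSMA5 and PSMA6 did not pass. Of all genes tested, 16.9% fell at this dose. At 30 µM against control, PSMA2, PSMA3 and PSMA4 fell and PSMA5 rose, where 31.3% of all genes fell and 29.5% rose. PSMA5 had 75.8, 76.0 and 71.5 CPM in the controls, 68.6, 70.2 and 72.0 CPM at 20 µM and 86.1, 85.0 and 86.1 CPM at 30 µM. Its 20 µM libraries overlapped the controls (log2 change -0.083 ± 0.043, adjusted p = 0.144), and all its 30 µM libraries lay above them (log2 change 0.20 ± 0.043, adjusted p = 0.000107), although the log2 change at 30 µM was -0.0053 with scaling by library total alone. PSMA2 had 6.96, 6.45 and 8.08 CPM in the controls, 5.29, 3.97 and 3.26 CPM at 20 µM and 4.35, 4.29 and 4.34 CPM at 30 µM. Every treated PSMA2 library lay below every control, with a log2 change of -0.78 ± 0.15 at 20 µM (adjusted p = 9e-05) and -0.73 ± 0.15 at 30 µM (adjusted p = 8.65e-05), or 0.603 times the control level at 30 µM. PSMA2 shares 34.6% of its exonic bases with other genes in GENCODE 29, among them MRPL32 on the other strand and a gene on its own strand. Its level and its fall are uncertain, since the strand setting of the counting is unknown here. No strand setting would separate the bases shared on the same strand.

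The remaining alpha genes differed in whether they came back at the higher dose. PSMA3 fell at 20 µM (log2 -0.32 ± 0.041) and less at 30 µM (log2 -0.16 ± 0.040), and it was 0.16 log2 units higher at 30 µM than at 20 µM (adjusted p = 0.000884), or -0.029 with scaling by library total alone. PSMA4 fell at 20 µM (log2 -0.35 ± 0.045) and at 30 µM (log2 -0.39 ± 0.046), and its difference between the doses did not pass (95% interval -0.14 to 0.049). PSMA7, the alpha gene with the highest level, was at 233 ± 8.75 CPM in controls, 205 ± 12.4 CPM at 20 µM and 232 ± 6.47 CPM at 30 µM (SD, n = 3). Its level at 30 µM was not distinguishable from control (95% interval of the log2 change -0.085 to 0.077). PSMA1 passed only between the doses (log2 0.18 ± 0.079, adjusted p = 0.0482), a call that was lost in 8 of the 9 fits that left out 1 library (adjusted p up to 0.187, without 20 µM replicate 1). PSMA6 did not pass in any comparison, and 25.9% as many counts as its own fell on its pseudogenes, so its level is uncertain.

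The beta ring, which holds the proteolytic sites, fell at 20 µM in 6 of 7 members, against 16.9% of all genes. PSMB4, a subunit without catalytic activity, was the exception, with 108, 119 and 116 CPM in the controls, 103, 109 and 109 CPM at 20 µM and 119, 125 and 122 CPM at 30 µM. At 20 µM its libraries overlapped the controls (log2 change -0.094 ± 0.042, adjusted p = 0.0809). At 30 µM it rose by 0.10 ± 0.042 (adjusted p = 0.0434), a call that was lost without control 1 or 3, without 20 µM replicate 3, or without 30 µM replicate 2 or 3 (adjusted p 0.0603 to 0.289) and that became -0.11 with scaling by library total alone. PSMB3, also without catalytic activity, was at the other end, with 105, 111 and 109 CPM in the controls, 79.6, 82.2 and 83.9 CPM at 20 µM and 86.2, 85.1 and 90.8 CPM at 30 µM. All its treated libraries lay below all controls, at 0.755 times the control level at 20 µM and 0.806 times at 30 µM (adjusted p = 1.52e-09 and 7.66e-08). PSMB2 fell in the same range (log2 -0.38 ± 0.038 at 20 µM and -0.26 ± 0.038 at 30 µM), and PSMB1 fell at 20 µM (log2 -0.20 ± 0.044) and did not pass at 30 µM (log2 -0.057 ± 0.044).

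All 3 genes for the proteolytic subunits of the standard proteasome fell at 20 µM, as 16.9% of all genes did, and none passed against control at 30 µM. PSMB5, the chymotrypsin-like subunit that is the main target of proteasome-inhibiting drugs, had 107, 107 and 105 CPM in the controls, 88.2, 90.1 and 95.4 CPM at 20 µM and 97.4, 103 and 102 CPM at 30 µM. PSMB6, the caspase-like subunit, had 77.8, 72.0 and 74.8 CPM in the controls, 59.4, 60.0 and 70.0 CPM at 20 µM and 61.8, 66.8 and 73.7 CPM at 30 µM. PSMB7, the trypsin-like subunit, had 84.9, 86.1 and 85.6 CPM in the controls, 76.2, 67.5 and 69.4 CPM at 20 µM and 83.6, 82.2 and 86.0 CPM at 30 µM. In all 3 genes every 20 µM library lay below every control, and for PSMB5 so did every 30 µM library. The log2 changes at 20 µM were -0.22 ± 0.041 for PSMB5 (adjusted p = 4.97e-05), -0.25 ± 0.068 for PSMB6 (adjusted p = 0.0095) and -0.27 ± 0.045 for PSMB7 (adjusted p = 1.38e-05). The PSMB6 call was lost without 20 µM replicate 1 (adjusted p = 0.0563) or replicate 2 (adjusted p = 0.0787). At 30 µM against control the 95% intervals of the log2 change were -0.16 to 0.0058, -0.30 to -0.0058 and -0.12 to 0.064 for PSMB5, PSMB6 and PSMB7.

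In the regulatory particle, the base ATPases, which unfold the substrate and thread it into the core, fell at 20 µM in 6 of 6 members, against 16.9% of all genes. At 30 µM against control PSMC3 and PSMC6 fell and 0 rose, where 31.3% of all genes fell and 29.5% rose. PSMC4 had 107, 105 and 102 CPM in the controls, 86.2, 90.9 and 85.9 CPM at 20 µM and 110.2, 106 and 112 CPM at 30 µM. It fell at 20 µM (log2 change -0.26 ± 0.041, adjusted p = 5.75e-06), and at 30 µM its libraries overlapped the controls (log2 change 0.063 ± 0.040, adjusted p = 0.179). PSMC3 had 75.4, 74.2 and 73.1 CPM in the controls, 56.2, 57.9 and 58.7 CPM at 20 µM and 51.4, 51.8 and 57.8 CPM at 30 µM. It was the ATPase gene that went furthest down at the higher dose, to 0.724 times the control level (log2 change -0.47 ± 0.049, adjusted p = 3.75e-10), with all treated libraries below all controls. PSMC1, PSMC2, PSMC5 and PSMC6 fell at 20 µM, with log2 changes of -0.37, -0.21, -0.14 and -0.34. The PSMC5 call was lost without control 1 or 2 (adjusted p = 0.0507 each) or 20 µM replicate 1 (adjusted p = 0.132), and the PSMC6 fall at 30 µM was lost without control 2 or 3 or 30 µM replicate 3 (adjusted p 0.0524 to 0.25). PSMC1 shares 75.8% of its exonic bases with NRDE2 on the other strand and PSMC5 shares 19.5% with FTSJ3, so both levels are uncertain.

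Of the other base genes, PSMD1 and PSMD2 rose at 30 µM against control and PSMD4 fell, where 29.5% of all genes rose and 31.3% fell. PSMD2, a scaffold of the base that docks ubiquitin shuttle proteins, lies at chr3:184298709-184309054 on the plus strand (GENCODE 29, hg38) and had 206, 206 and 209 CPM in the controls, 168, 173 and 169 CPM at 20 µM and 266, 266 and 276 CPM at 30 µM. The 3 groups did not overlap: it fell at 20 µM to 0.820 times the control level (log2 change -0.29 ± 0.034, adjusted p = 2.55e-08) and rose at 30 µM to 1.30 times (log2 change 0.38 ± 0.033, adjusted p = 6.69e-12). PSMD2 had the largest difference between the doses of any member, 1.59-fold (log2 change 0.67 ± 0.034, adjusted p = 7.34e-18), and its rise at 30 µM was called under every scaling tried. PSMD1, the other large scaffold of the base, fell at 20 µM (log2 -0.27 ± 0.036) and rose at 30 µM (log2 0.092 ± 0.035, adjusted p = 0.0242), a rise that was lost without control 2 or 3 or 30 µM replicate 1 or 2 (adjusted p 0.0621 to 0.114) and became -0.12 with scaling by library total alone. PSMD4, a ubiquitin receptor, had 71.5, 74.7 and 73.8 CPM in the controls, 65.2, 70.7 and 69.7 CPM at 20 µM and 67.1, 64.4 and 63.3 CPM at 30 µM. It fell at 30 µM (log2 change -0.17 ± 0.046, adjusted p = 0.00133) and did not pass at 20 µM (log2 change -0.10 ± 0.045, adjusted p = 0.0993), although no library of either dose reached the controls.

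The lid, which holds the deubiquitinase PSMD14, fell in 7 of 8 members at 20 µM (16.9% of all genes), and all 8 were higher at 30 µM than at 20 µM (28.0% of all genes). Against control at 30 µM, 4 lid genes rose (PSMD3, PSMD8, PSMD12 and PSMD14) and 0 fell, though PSMD3, PSMD12 and PSMD14 turned below 0 with scaling by library total alone. Of all genes tested, 29.5% rose and 31.3% fell in that comparison with TMM scaling. PSMD8, a structural lid subunit, had 94.8, 84.1 and 85.0 CPM in the controls, 75.4, 82.9 and 85.3 CPM at 20 µM and 104, 106 and 110.1 CPM at 30 µM. Its 20 µM libraries overlapped the controls (log2 change -0.12 ± 0.049, adjusted p = 0.0666), and its 30 µM libraries lay above all others (log2 change 0.28 ± 0.049, adjusted p = 1.25e-05), a rise that was 0.067 and no longer called with scaling by library total alone (adjusted p = 0.214). PSMD7, the structural partner of PSMD14, had 101, 106 and 105 CPM in the controls, 81.3, 79.1 and 85.6 CPM at 20 µM and 101, 98.8 and 96.9 CPM at 30 µM. It fell at 20 µM (log2 change -0.34 ± 0.042, adjusted p = 5.01e-08) and overlapped the controls at 30 µM (log2 change -0.071 ± 0.042, adjusted p = 0.144), but it shares 30.7% of its exonic bases with an antisense gene. PSMD12, another structural subunit, had the largest difference between the doses in the lid, 1.42-fold higher at 30 µM (adjusted p = 5.16e-12), with a log2 change against control of -0.36 ± 0.043 at 20 µM and 0.15 ± 0.043 at 30 µM, where scaling by library total alone gave -0.058.

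PSMD14 was at 104 ± 4.12 CPM in controls, 85.7 ± 6.28 CPM at 20 µM and 113 ± 4.44 CPM at 30 µM (SD, n = 3). It fell at 20 µM (log2 change -0.27 ± 0.047, adjusted p = 2.43e-05) and rose at 30 µM (log2 change 0.12 ± 0.047, adjusted p = 0.0235), and the rise was lost without control 1 (adjusted p = 0.138) or 30 µM replicate 2 (adjusted p = 0.152) and became -0.087 with scaling by library total alone. PSMD3 rose at 30 µM by 0.089 ± 0.035 (adjusted p = 0.0301), and leaving out any control or 30 µM replicate 3 ended that call (adjusted p 0.0574 to 0.141), which became -0.12 with scaling by library total alone. PSMD11, a lid subunit, had the largest fall of the lid at 20 µM (log2 -0.40 ± 0.036) and was not distinguishable from control at 30 µM (95% interval -0.093 to 0.055). PSMD6 and PSMD13 fell at 20 µM, with log2 changes of -0.20 and -0.23, and did not pass against control at 30 µM.

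**Figure D2:**
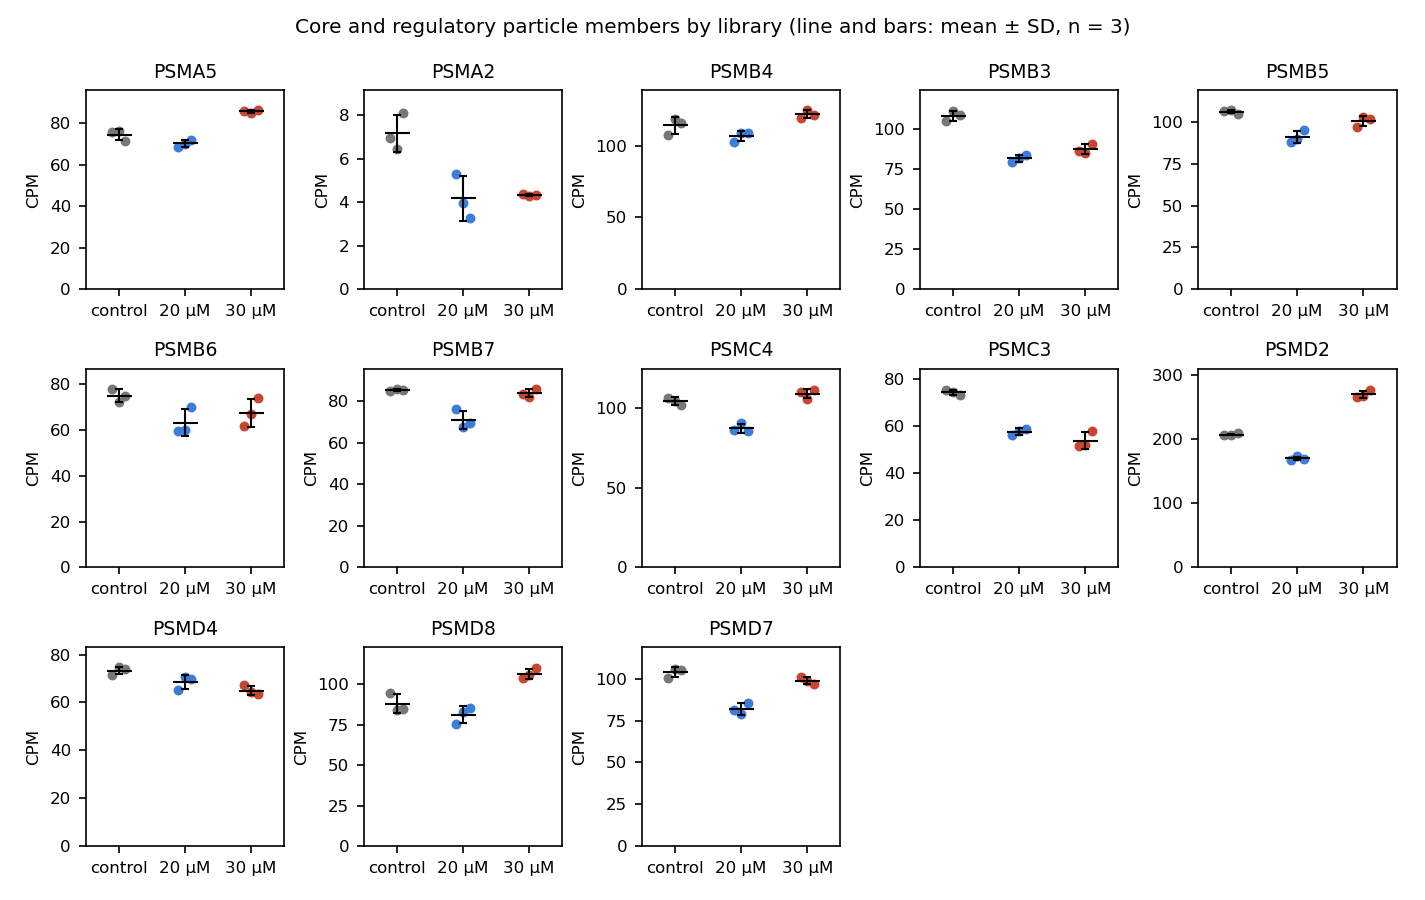
CPM of 13 core and regulatory particle genes in each library (points) for control, 20 µM and 30 µM, with the mean as a line and the SD as bars (n = 3), on axes that start at 0. PSMD2 and PSMD8 stand above the controls at 30 µM (PSMD8 no longer called with scaling by library total alone), PSMA2, PSMB3 and PSMC3 stay below them, and most panels dip at 20 µM.

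Set side by side, the core and the regulatory particle were both lower at 20 µM than in control and parted at 30 µM. The summed level of the 14 core genes was 1324 ± 4.13 CPM in controls, 1114 ± 33.0 CPM at 20 µM and 1236 ± 26.2 CPM at 30 µM (SD, n = 3). The summed level of the 17 regulatory particle genes was 1789 ± 8.15 CPM in controls, 1487 ± 26.7 CPM at 20 µM and 1874 ± 7.81 CPM at 30 µM (SD, n = 3). The core libraries at 30 µM stayed below all controls, while the regulatory particle libraries at 30 µM lay above all controls on this scale and below them as a plain share of counts (0.170% to 0.171%, against 0.186% to 0.190% in controls). A sum gives most weight to genes with high levels. With each gene weighted alike, the mean log2 level of the regulatory particle at 30 µM overlapped the controls (0.0072 to 0.021, against -0.015 to 0.016). The ratio of the 2 sums within a library, which no scaling factor can change, was 0.743, 0.738 and 0.739 in the controls, 0.745, 0.742 and 0.760 at 20 µM and 0.647, 0.661 and 0.670 at 30 µM. At 20 µM 1 of the 3 libraries fell within the control range, and at 30 µM all 3 lay below every other library.

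By genes passing the test, 10 of 14 core genes and 15 of 17 regulatory particle genes fell at 20 µM, where 16.9% of all genes did. At 30 µM against control, 2 core genes rose and 5 fell, and 6 regulatory particle genes rose and 3 fell, counts to be read against the 29.5% of all genes that were higher and 31.3% that were lower. The median log2 change of the core minus that of the regulatory particle was -0.15 at 30 µM against control and -0.15 between the doses. At 20 µM it was 0.033, while the mean over the libraries ran the other way (-0.010 ± 0.012, SD, n = 3), so no direction is given there. These differences are descriptions without a test, since members of a set are not replicates. The split did not follow the boundary between the particles exactly. The mean log2 level relative to control at 30 µM was -0.19 to -0.15 over the libraries for the alpha ring, -0.16 to -0.069 for the beta ring and -0.13 to -0.11 for the base ATPases. It was 0.085 to 0.11 for the other base genes and 0.070 to 0.10 for the lid. The other base genes were not alike, with log2 changes of 0.38 for PSMD2, 0.092 for PSMD1 and -0.17 for PSMD4. With scaling by library total alone the median log2 change was below 0 for all 5 of these roles, from -0.37 for the alpha ring to -0.12 for the other base genes and for the lid, so that being above control rests on the scaling while the order of the roles within a library does not.

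**Figure D3:**
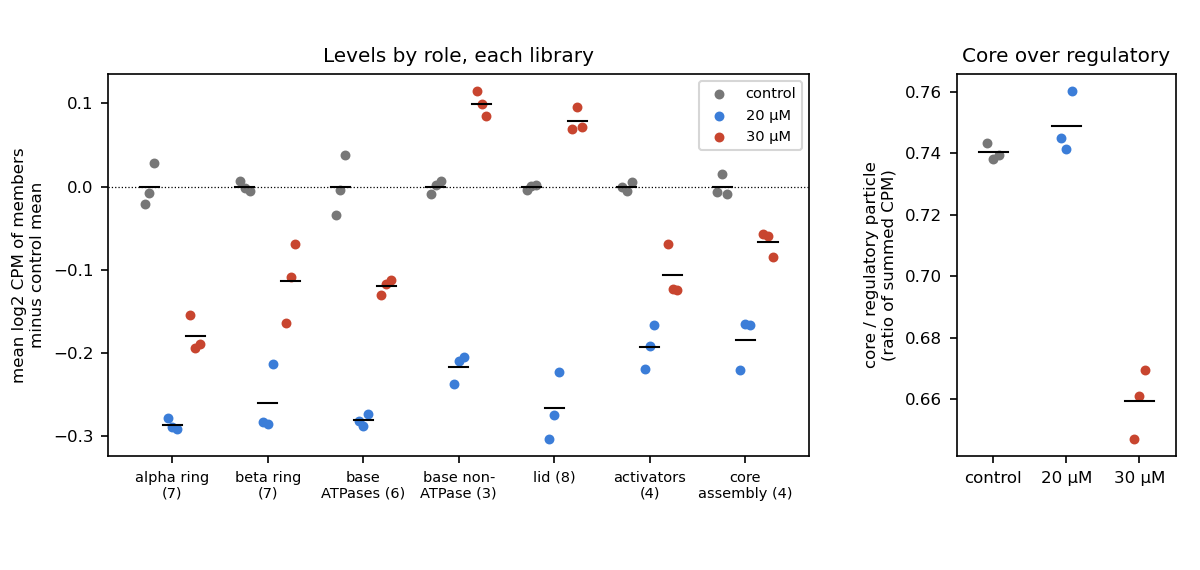
Left, the mean log2 CPM of the members of each role in each library, relative to the control mean, for control (grey), 20 µM (blue) and 30 µM (red), with the group mean as a line; right, the ratio of summed core to summed regulatory particle CPM in each library, on an axis that does not start at 0. The lid and the non-ATPase base genes are the roles whose 30 µM libraries lie above the controls with TMM scaling, though their median log2 changes turn to -0.12 with scaling by library total alone, and the ratio at 30 µM runs from 0.647 to 0.670, below every library of the other groups. Among the non-ATPase base genes, PSMD4 fell at 30 µM.

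At 30 µM against control 1 of the 4 activators rose, 2 fell and 1 did not pass. Of all genes tested, 29.5% rose and 31.3% fell in that comparison. PSME4, a nuclear activator that acts on acetylated histones, lies at chr2:53864067-53970840 on the minus strand and had 287, 283 and 291 CPM in the controls, 255, 249 and 251 CPM at 20 µM and 384, 389.9 and 366 CPM at 30 µM. The 3 groups did not overlap, with a fall at 20 µM (log2 change -0.19 ± 0.033, adjusted p = 2.34e-05) and the largest rise of any member at 30 µM, 1.33 times the control level (log2 change 0.41 ± 0.033, adjusted p = 9.04e-13), which was called under every scaling tried. PSME1 and PSME2, which form the interferon-inducible activator ring, are neighbours on chromosome 14 (chr14:24136158-24138967 and chr14:24143362-24147570). PSME1 had 74.6, 71.7 and 75.6 CPM in the controls, 69.9, 70.6 and 69.9 CPM at 20 µM and 61.2, 57.5 and 63.7 CPM at 30 µM. PSME2 had 54.0, 57.9 and 58.2 CPM in the controls, 44.0, 49.2 and 52.4 CPM at 20 µM and 40.7, 38.6 and 36.3 CPM at 30 µM. For both genes all 30 µM libraries lay below all 20 µM libraries, which in turn lay below all controls, although PSME1 did not pass the test at 20 µM against control (log2 change -0.077). PSME2 reached 0.679 times the control level at 30 µM (log2 change -0.56 ± 0.059, adjusted p = 8.9e-10) and PSME1 0.822 times (log2 change -0.28 ± 0.046, adjusted p = 2.42e-06). PSME3, the nuclear relative of PSME1 and PSME2, had 219, 212 and 200.4 CPM in the controls, 175, 172 and 173 CPM at 20 µM and 217, 207 and 212 CPM at 30 µM. It fell at 20 µM (log2 change -0.28 ± 0.036, adjusted p = 1.63e-07), and its 30 µM libraries overlapped the controls (95% interval of the log2 change -0.062 to 0.085).

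Of the assembly factors, POMP, the maturation protein that is enclosed in the core as its beta subunits are processed, had 52.8, 54.5 and 57.0 CPM in the controls, 48.6, 46.8 and 49.8 CPM at 20 µM and 63.5, 64.5 and 67.3 CPM at 30 µM. It fell at 20 µM (log2 change -0.18 ± 0.049, adjusted p = 0.00409) and rose at 30 µM (log2 change 0.25 ± 0.048, adjusted p = 3.47e-05), with no overlap between the 3 groups, but the rise was 0.039 and no longer called with scaling by library total alone (adjusted p = 0.499). PSMG1 and PSMG2 form a chaperone that holds the alpha ring as it is built. PSMG1 had 39.8, 40.1 and 40.1 CPM in the controls, 31.1, 34.0 and 33.1 CPM at 20 µM and 32.2, 33.9 and 33.6 CPM at 30 µM, so all treated libraries lay below all controls (adjusted p = 8.28e-05 at 20 µM and 0.000106 at 30 µM). PSMG2 had 31.9, 32.7 and 28.0 CPM in the controls, 28.2, 29.9 and 30.9 CPM at 20 µM and 31.5, 28.5 and 28.7 CPM at 30 µM, with overlap in every comparison, and it shares exonic bases with CEP76 and SPIRE1. PSMG3, another alpha ring chaperone, had 16.0, 16.0 and 16.6 CPM in the controls, 13.9, 14.5 and 13.5 CPM at 20 µM and 14.5, 14.8 and 13.3 CPM at 30 µM. Its falls (log2 change -0.21 ± 0.081, adjusted p = 0.0387 at 20 µM and log2 change -0.19 ± 0.081, adjusted p = 0.0431 at 30 µM) had no overlap with the controls, but each was lost in 5 of the 9 fits without 1 library (adjusted p up to 0.116 at 20 µM, without control 3, and up to 0.176 at 30 µM, without 30 µM replicate 3).

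**Figure D4:**
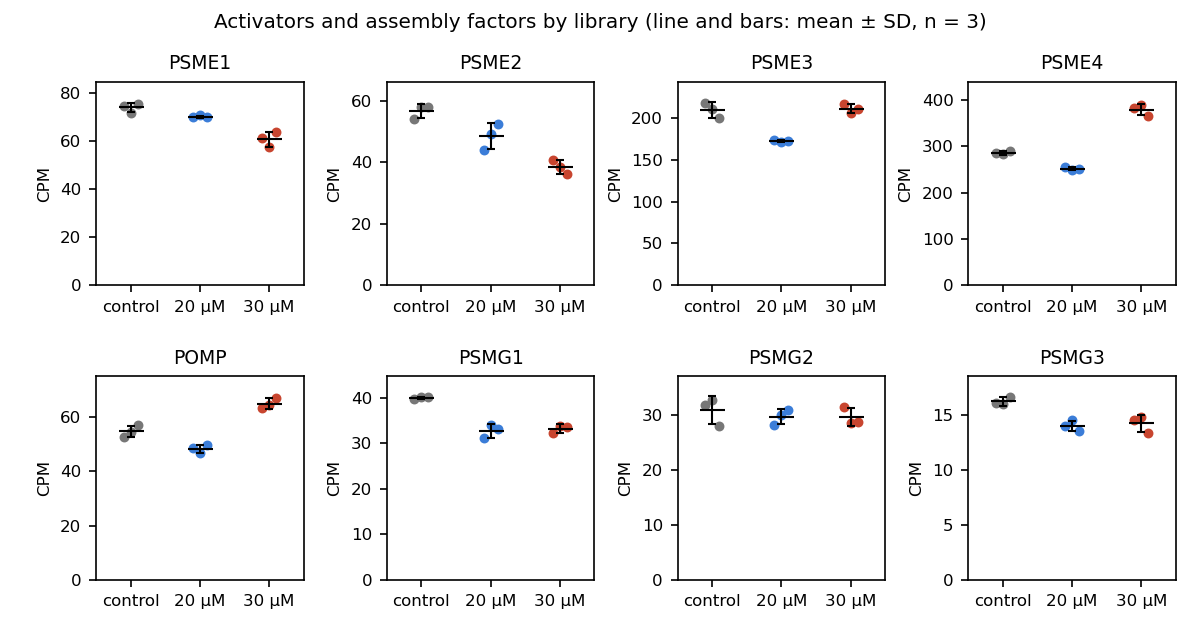
CPM of the 4 activator and 4 core assembly genes in each library (points) for control, 20 µM and 30 µM, with the mean as a line and the SD as bars (n = 3), on axes that start at 0. PSME4 and POMP dip at 20 µM and stand above the controls at 30 µM (POMP no longer called with scaling by library total alone), PSME1 and PSME2 step down with dose (PSME1 not called at 20 µM), and PSMG2 overlaps throughout.

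Grouped by their calls, 7 members fell at 20 µM and were higher at 30 µM than in both other groups (PSMD1, PSMD2, PSMD3, PSMD12, PSMD14, PSME4 and POMP), and none of these 7 is a core subunit. That combination was found in 2.06% of all genes tested, and the rise at 30 µM against control turned below 0 in PSMD1, PSMD3, PSMD12 and PSMD14 with scaling by library total alone. A further 12 members fell at 20 µM, were higher at 30 µM than at 20 µM and did not pass against control at 30 µM (PSMA7, PSMB1, PSMB5, PSMB7, PSMC1, PSMC2, PSMC4, PSMD6, PSMD7, PSMD11, PSMD13 and PSME3), against 2.49% of all genes. Another 6 fell at both doses without passing between them (PSMA2, PSMA4, PSMB3, PSMC3, PSMG1 and PSMG3), against 3.92% of all genes. PSMA3, PSMB2 and PSMC6 fell at both doses and were higher at 30 µM than at 20 µM, as 0.721% of all genes were. PSMA5, PSMB4 and PSMD8 (7.69% of members) passed only as higher at 30 µM, against control and between the doses, as 13.2% of all genes did. PSME2 was lower in all 3 comparisons, as 7.01% of all genes were. PSME1 was lower at 30 µM in both comparisons of that dose (13.9% of all genes), and PSMD4 only against control (3.48%). PSMB6 and PSMC5 passed only as lower at 20 µM (0.721%), and PSMA1 only as higher between the doses (1.62%). PSMA6 and PSMG2 (5.13% of members) passed in no comparison, as 28.3% of all genes did. These groups rest on comparisons that share libraries, so they describe the members and are not separate evidence.

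**Figure D5:**
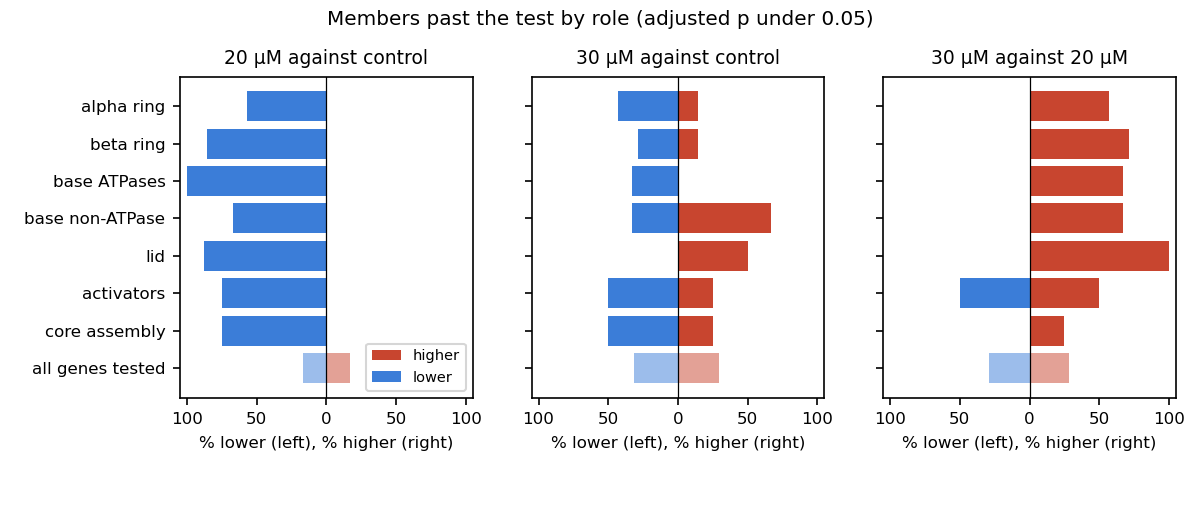
Percent of the members of each role that were lower (blue, left) or higher (red, right) at an adjusted p under 0.05, in the 3 comparisons, with all genes tested as the bottom pale bars. At 20 µM against control every role has bars only on the left, and at 30 µM against 20 µM all 8 lid genes are on the right, while 6 of the 10 members higher at 30 µM against control and 7 of the 26 between the doses turned below 0 with scaling by library total alone.

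Levels between genes were compared per length, as CPM per kb of exonic sequence in GENCODE 29. In controls PSMA7 had the highest level per length at 133 CPM per kb and PSMB3 the next at 92.0, with PSMB5, PSMB4, PSMB1 and PSMB6 between 51.7 and 60.3. PSMA6, PSMA2, PSMC1 and PSMA1 were lowest, at 1.29, 1.34, 4.03 and 5.20 CPM per kb. These 4 genes are among the 8 members that share at least 10% of their exonic bases with another gene (with PSMC5, PSMD1, PSMD7 and PSMG2), and PSMA6 and PSMC1 also have pseudogenes that took counts. Without those 8 members, 26 of 31 fell and 0 rose at 20 µM against control, 9 rose and 11 fell at 30 µM against control, and 22 rose and 2 fell between the doses. The background was 17.2% of all genes higher and 16.9% lower at 20 µM against control. It was 29.5% and 31.3% at 30 µM against control, near the counts of the 31 members, and 28.0% and 28.9% between the doses.

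Among 15 other proteasome genes, 13 could be tested, and PSMA8 and PSMB11, the testis and thymus forms, were at or near 0. At 20 µM against control 0 rose and 5 fell, and at 30 µM 3 rose (ADRM1, PSMF1 and USP14) and 7 fell, where 0 rose and 10 fell with scaling by library total alone. With TMM scaling 17.2% of all genes rose and 16.9% fell at 20 µM, and 29.5% rose and 31.3% fell at 30 µM. Scaling by library total alone called 3530 of the 17623 genes higher and 8022 lower at 30 µM. The immunoproteasome subunits, which replace the standard catalytic subunits under interferon, had low levels. PSMB8 was at 13.5 to 17.4 CPM in the controls, 11.7 to 15.9 CPM at 20 µM and 9.20 to 9.83 CPM at 30 µM. PSMB9 had 3.55, 3.52 and 2.73 CPM in the controls, 2.83, 2.42 and 2.61 CPM at 20 µM and 0.833, 0.949 and 1.82 CPM at 30 µM. Both fell at 30 µM, PSMB8 to 0.599 times the control level (log2 change -0.74 ± 0.11, adjusted p = 1.02e-06) and PSMB9 to 0.371 times (log2 change -1.43 ± 0.24, adjusted p = 4.19e-06), and did not pass at 20 µM. PSMB10 stayed between 1.15 and 2.11 CPM in all libraries and did not pass. PAAF1 and PSMD5, chaperones that bind the base ATPases, fell at 30 µM, with log2 changes of -0.82 ± 0.080 and -0.61 ± 0.071, as did PSMG4, the partner of PSMG3 (-0.52 ± 0.070).

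Of 9 genes of proteasome supply and disassembly, 2 rose and 0 fell at 20 µM, and 7 rose and 1 fell at 30 µM, or 4 and 2 with scaling by library total alone. The shares over all genes with TMM scaling were 17.2% higher and 16.9% lower at 20 µM, and 29.5% higher and 31.3% lower at 30 µM. With scaling by library total alone, 3530 of the 17623 genes were higher and 8022 lower at 30 µM. NFE2L1, the factor that induces proteasome genes, had 228, 222 and 213 CPM in the controls, 239, 253 and 254 CPM at 20 µM and 265, 258 and 264 CPM at 30 µM. It rose at 20 µM (log2 change 0.17 ± 0.035, adjusted p = 0.000199) and at 30 µM (log2 change 0.24 ± 0.035, adjusted p = 2.83e-07), where scaling by library total alone gave 0.035 and ended the call (adjusted p = 0.382). NFE2L2, its relative in the oxidative stress response, had 176, 176 and 176 CPM in the controls, 188, 181 and 179 CPM at 20 µM and 337, 334 and 326 CPM at 30 µM. It rose to 1.89 times the control level at 30 µM (log2 change 0.92 ± 0.034, adjusted p = 6.07e-22). ZFAND5, which binds the proteasome and stimulates it, was 86.2 ± 4.24 CPM in controls, 103 ± 0.630 CPM at 20 µM and 199 ± 1.59 CPM at 30 µM (SD, n = 3) and rose at both doses (adjusted p = 5.02e-06 and 2.57e-23). ECPAS, a proteasome adaptor, rose at 30 µM (log2 change 0.50 ± 0.035, adjusted p = 1.93e-14). DDI2, the protease that activates NFE2L1, was the gene that fell at 30 µM (log2 change -0.39 ± 0.040, adjusted p = 2.44e-10), and it is named here after its value was seen. Of 17 ubiquitin, shuttle and p97 genes, 2 rose and 6 fell at 20 µM, and 11 rose and 2 fell at 30 µM, or 6 and 7 with scaling by library total alone. These counts are to be read against the same values over all genes, each with its own scaling.

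RefSeq promoter windows of 300 bases (250 before to 50 after the start, GRCh38.p14) were given for 33 of the 39 members, and 6 (PSMA7, PSMB1, PSMB6, PSMB7, PSMD4 and PSMG3) are named only. Motifs were searched on both strands: TGACNNNGC, the core of the element bound by NFE2L1 and NFE2L2, and CCAAT, the site of the NFY factor. TGACNNNGC was in 10 of the 33 windows (30.3%), against 13.4% of all 35116 windows in the table, and CCAAT in 16 (48.5%), against 34.6%. Each member entered with a single window, while the 35116 windows were not limited to a single window per gene or to genes tested here. The shares therefore compare unlike sets. By role, TGACNNNGC was in 1 of 10 core windows, 4 of 16 regulatory particle windows, 3 of 4 activator windows and 2 of 3 assembly windows. It was in 4 of the 10 windows of members that rose at 30 µM, 4 of 10 of those that fell and 2 of 13 of those that did not pass, so the share was 40% in each of the groups that rose and fell. The 250 bases before the start of 6 members are shown, since they span the range of responses: PSMD2 and PSME4 with the largest rises at 30 µM, PSMD12 and PSMD14 of the lid, PSME2 and PSMB3 with falls at both doses. In GENCODE 29 the genes PSMD2, PSMD14 and PSME2 begin upstream of the stretches shown, which therefore lie within the annotated genes, and the stretches of PSMD12 and PSMB3 reach into their genes in part. Sequences run 5′ to 3′ in the direction of transcription, and capitals mark the motif matches.
PSMD2 (chr3:184298991-184299240, plus strand, no match): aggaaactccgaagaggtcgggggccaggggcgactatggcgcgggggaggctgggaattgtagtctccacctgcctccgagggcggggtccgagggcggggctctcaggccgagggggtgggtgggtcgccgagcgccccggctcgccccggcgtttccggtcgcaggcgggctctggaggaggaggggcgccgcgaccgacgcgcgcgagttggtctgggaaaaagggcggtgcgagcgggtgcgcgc
PSME4 (chr2:53970994-53971243, minus strand): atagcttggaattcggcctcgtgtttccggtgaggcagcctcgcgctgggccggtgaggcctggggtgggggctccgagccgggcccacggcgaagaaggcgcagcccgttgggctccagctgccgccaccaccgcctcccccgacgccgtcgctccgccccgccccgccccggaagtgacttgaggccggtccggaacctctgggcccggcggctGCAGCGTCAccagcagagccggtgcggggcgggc
PSMD12 (chr17:67366578-67366827, minus strand): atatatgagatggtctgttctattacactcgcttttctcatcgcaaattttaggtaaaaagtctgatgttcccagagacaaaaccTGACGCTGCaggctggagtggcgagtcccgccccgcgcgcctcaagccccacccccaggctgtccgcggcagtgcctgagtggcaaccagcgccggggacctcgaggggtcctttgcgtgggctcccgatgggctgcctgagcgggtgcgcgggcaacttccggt
PSMD14 (chr2:161308175-161308424, plus strand): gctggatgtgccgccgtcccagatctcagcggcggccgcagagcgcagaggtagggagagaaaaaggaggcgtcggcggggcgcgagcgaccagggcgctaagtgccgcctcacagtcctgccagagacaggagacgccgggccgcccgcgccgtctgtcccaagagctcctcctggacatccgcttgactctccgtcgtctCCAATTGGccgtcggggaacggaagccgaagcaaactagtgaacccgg
PSME2 (chr14:24146611-24146860, minus strand): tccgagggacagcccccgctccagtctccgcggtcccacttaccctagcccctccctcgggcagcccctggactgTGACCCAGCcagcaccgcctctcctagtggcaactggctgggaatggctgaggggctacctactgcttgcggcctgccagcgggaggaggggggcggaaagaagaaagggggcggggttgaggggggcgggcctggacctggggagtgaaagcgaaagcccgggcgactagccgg
PSMB3 (chr17:38752491-38752740, plus strand): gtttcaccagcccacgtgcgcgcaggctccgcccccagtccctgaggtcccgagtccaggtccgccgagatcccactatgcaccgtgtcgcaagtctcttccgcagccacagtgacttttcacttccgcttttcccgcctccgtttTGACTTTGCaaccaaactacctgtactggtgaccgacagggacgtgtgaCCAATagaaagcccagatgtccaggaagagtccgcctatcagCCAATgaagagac

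The PSMD2 window held neither motif, although the gene had the largest difference between the doses. The match in PSME4 reads TGACGCTGC on the opposite strand, the same letters as the match in PSMD12, and both genes fell at 20 µM and rose at 30 µM, although PSMD12 was below 0 at 30 µM with scaling by library total alone. PSME2, with the match TGACCCAGC, and PSMB3, with TGACTTTGC and a pair of CCAAT matches, fell at both doses. PSMD14 held CCAAT on each strand in overlapping positions and no TGACNNNGC. Among members that fell at 20 µM and rose at 30 µM, PSMD1, PSMD3, PSMD12 and PSME4 held TGACNNNGC, and PSMD2, PSMD14 and POMP did not. Among those that fell at both doses, PSMB3, PSMG1 and PSME2 held it. PSMA2, PSMA3, PSMA4, PSMB2, PSMC3 and PSMC6 did not, and PSMG3 had no window. No TGACNNNGC match overlapped a CCAAT match in any window. A match is a description of these letters and not of binding.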

How the data were processed

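RNA of 9 HepG2 libraries was sequenced as paired-end reads from a stranded, rRNA-depleted total RNA kit, per the labels' protocols, although the molecule is labelled polyA RNA. Reads were aligned with STAR 2.7.10a to hg38 and counted per gene with HTSeq, per the submitters' processing notes, and the counts were used as deposited. Neither the strand setting of HTSeq nor the gene annotation it used is given in the sources used here. Gene positions, lengths and overlaps came from GENCODE 29, which held 58220 of the 62703 identifiers. The summary records for reads in no gene, in several genes or aligned to several places made up 40.6% to 44.0% of records and were left out of library sizes. From the deposited counts, edgeR 4.0.16 (R 4.3.3) was run with filterByExpr, TMM scaling and a robust quasi-likelihood fit with a mean per group, which kept 17623 genes, with Benjamini-Hochberg adjustment and a threshold of 0.05. The test was run on simulated data with 200 changed genes first. Replicates of a group differed beyond counting noise, so none were merged. Alternatives were other scalings, DESeq2 1.42.0, limma 3.58.1 voom, other filters, a replicate block and leaving out each library. All 39 members are named. Values in every library are given for the member of each role with the largest and the smallest log2 change at 30 µM, for the catalytic subunits, the activators and the assembly factors. Other pathway genes are named past 0.5 log2 units, at most 5 per list, besides NFE2L1 and the immunoproteasome genes. A gene that met this rule is not reported here. Exceptions are named by the counts they belong to (ADRM1, PSMF1, USP14 and DDI2). The members and lists were chosen with earlier results of these data known.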

Additional observations from a re-analysis of the deposited data

Results flagged for a closer look

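The share of records that aligned to several places, which enters no gene count, was above every control library at both doses. It averaged 14.6% at 20 µM and 16.8% at 30 µM, against 12.5% in controls. Its part in the proteasome results was not tested.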

How the results depend on the processing

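At 20 µM against control 0 members were higher under any alternative run, and 28 of the 31 falls held in every alternative other than scaling by library total alone, which kept all 31. The exceptions were PSMB6, PSMC5 and PSMG3. At 30 µM against control 5 of 10 rises (PSMA5, PSMD2, PSMD8, PSME4 and POMP) and 10 of 12 falls held in those alternatives, and between the doses 20 of 26 rises and 2 of 2 falls. Upper-quartile scaling gave 5 higher and 19 lower members at 30 µM against control, and 20 higher and 5 lower between the doses. Scaling by library total alone gave 2 higher and 32 lower at 30 µM against control, and 11 higher and 10 lower between the doses. These counts have their own backgrounds among the 17623 genes tested. For 30 µM versus control, upper-quartile scaling called 4636 genes higher and 6225 lower, and library total alone called 3530 higher and 8022 lower. For 30 µM versus 20 µM, the former called 4108 genes higher and 6067 lower, and the latter 3029 higher and 7690 lower.

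With scaling by library total alone these log2 changes turned sign. At 30 µM against control they were -0.18 for PSMA1, -0.0053 for PSMA5, -0.11 for PSMB4, -0.18 for PSMC2, -0.15 for PSMC4, -0.12 for PSMD1, -0.12 for PSMD3, -0.11 for PSMD6, -0.058 for PSMD12, -0.087 for PSMD14 and -0.20 for PSME3. Between the doses they were -0.011 for PSMA1, -0.029 for PSMA3, -0.013 for PSMA7, -0.046 for PSMB1, -0.082 for PSMB2, -0.099 for PSMB3, -0.0016 for PSMB4, -0.049 for PSMB5, -0.15 for PSMC5 and -0.17 for PSMG1. By construction this scaling moves all genes by a common amount, and relative to the median of all genes the members stood at -0.022 at 30 µM against control and 0.221 between the doses, against -0.021 and 0.221 with TMM.

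Leaving out each library gave 28 to 31 lower members at 20 µM against control, 7 to 10 higher and 10 to 14 lower at 30 µM against control, and 24 to 28 higher and 2 to 3 lower between the doses. In the same fits the core minus the regulatory particle ranged from 0.00763 to 0.0766 at 20 µM against control, from -0.166 to -0.121 at 30 µM against control and from -0.171 to -0.116 between the doses. Control replicate 1, 20 µM replicate 3 and 30 µM replicate 3 deviated together (correlations 0.331 to 0.352). Leaving out these 3 libraries, chosen after seeing the data, gave 31 lower members at 20 µM, 7 higher and 12 lower at 30 µM and 25 higher and 3 lower between the doses, and a core minus regulatory particle of 0.0162 at 20 µM against control and -0.11 between the doses. Leaving out members with shared exons, also chosen after seeing the data, gave 0.00792 at 20 µM against control.

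The main fit took no pairing by replicate number. Same-numbered deviations correlated at -0.202 to 0.143 in the comparisons with control and at 0.0767 to 0.352 between the doses. Such correlations cannot settle whether same-numbered libraries were handled together, since they come from only 3 libraries per group. A fit with the replicate number as a block gave 31 lower members at 20 µM, 10 higher and 13 lower at 30 µM, and 25 higher and 2 lower between the doses. Over all alternatives, 2117 single member values kept their direction and call, 94 lost the call, 67 gained one, 41 uncalled values changed sign and 21 turned as listed. Depth limits PSMA2, PSMA6 and PSMG3 most among the members, with 1180, 1729 and 3306 counts over all 9 libraries. The causes of these changes were not tested further.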
